A study of Mus musculus with 24 samples.

Results

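Interferon-induced genes are genes whose transcripts rise when a cell senses interferon. Here 38 of them were followed across the ventral prostate of 6 inbred mouse strains. They were chosen by name with earlier results of these data known, which limits every comparison of their counts with all probe sets. A gene was counted as measured when the array held a probe set annotated to its symbol alone, and the brightest such probe set stood for the gene. Of the 38 genes, 33 were measured, among 12393 genes measured on the array in all, and 30 of the 33 were bright enough to be tested. Ifit2, Mx2 and Gbp3 were measured but did not pass the brightness filter, which asked for a signal above the array's 40th percentile on at least 4 arrays. Isg15 and Tgtp1 each had 1 probe set annotated with several symbols, and Ifi44, Oas1g and Xaf1 were matched by no probe set, so these 5 are given no value. The tissue came from wild type, untreated mice of 6 strains, C57BL/6, BALB/c, FVB, 129X1, SWR and AKR, 8 weeks old and kept on a standard diet. Each strain gave 4 biological replicates, 24 arrays in all, so every group shares the wild type genotype, age and diet, and the labels differ in strain only. The labels do not say whether an array holds 1 animal or a pool, so p-values measure the spread between these samples. The study's title names a search for cancer modifiers by comparing expression between parental strains.

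Type I interferons bind a receptor that signals through the kinases JAK1 and TYK2 to STAT2, which acts with IRF9 in a complex named ISGF3. ISGF3 and the interferon regulatory factors bind a short DNA element, the interferon-stimulated response element, upstream of many antiviral genes. Without infection, tissues keep a low basal level of these transcripts, and IRF7, itself induced, raises further interferon production.

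The letters of that element can be read upstream of several members. RefSeq (build GRCm38.p6) held promoter windows for 29 of the 38 genes. The motif GAAANNGAAA, searched on both strands (TTTCNNTTTC when it lies on the opposite strand, overlapping matches counted) in the 250 bases before each start, was present in 14 of their 34 windows, 41.2%, against 978 of all 32851 windows of that length, 2.98%. Below are 6 of them, 4 from genes that were lower in SWR and 2 from GTPase genes whose strain test was not passed, to set both kinds side by side. Each runs 5′ to 3′ in the gene's direction, with the bases of every match in capitals.
Ifit1, chr19:34640760-34640838, plus strand: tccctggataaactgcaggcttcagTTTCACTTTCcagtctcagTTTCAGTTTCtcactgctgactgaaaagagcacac
Ifit3, chr19:34583348-34583441, plus strand: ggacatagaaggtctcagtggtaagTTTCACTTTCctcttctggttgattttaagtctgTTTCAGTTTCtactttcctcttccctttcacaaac
Rsad2, chr12:26456538-26456597, minus strand: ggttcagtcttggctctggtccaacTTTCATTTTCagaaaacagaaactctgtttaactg
Oas1a, chr5:120907526-120907570, minus strand: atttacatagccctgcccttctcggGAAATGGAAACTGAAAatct
Irgm1, chr11:48871421-48871475, minus strand: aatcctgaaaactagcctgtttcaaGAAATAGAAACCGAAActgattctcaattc
Igtp, chr11:58199497-58199555, plus strand: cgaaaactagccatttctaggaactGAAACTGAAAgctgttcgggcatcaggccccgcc
Ifit1, Ifit3, Oas1a and Irgm1 each held 2 matches and Rsad2 and Igtp held 1. Those of Oas1a and Irgm1 overlapped. The windows of Irf7, Irf9, Ifih1, Ifitm3, Oasl1 and Oasl2, which were also lower in SWR, held no match. Ifi27l2a, Usp18 and Rtp4, the remaining genes lower in SWR, had no window. Of the tested members with a window, 7 of the 15 that differed among strains and 3 of the 7 that did not pass held the motif. A match is a string of letters and not a measured binding site.

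Values are on the scale log2(intensity + 16), where intensity is the deposited linear probe set signal after each array was brought to 1 common trimmed mean. The added 16 makes fold changes of dim genes smaller than they are. The 40th percentile of an array, used in the brightness filter, lay between 5.52 and 5.72 on this scale. Every array resembled the arrays of its own strain most closely (24 of 24). Secretory genes of the prostate luminal epithelium were bright in every strain. Strain means of Pbsn, probasin, ran from 11.11 to 12.92, those of Msmb from 11.82 to 13.55 and those of Spink1 from 12.55 to 13.36. These genes were not used to tell 1 prostate lobe from another. Skeletal muscle transcripts stood high on 3 arrays, 129X1 replicate 4 (mean marker score 2.12 against a centre of 0), SWR replicate 4 (1.41) and C57BL/6 replicate 4 (0.74), so the main counts are given without these 3 as well. In whole tissue, fewer cells of a type and less RNA per cell cannot be told apart.

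Transcript levels of the interferon-induced genes differed among the strains, with SWR at the low end and 129X1 at the high end for most of those that differed. A moderated F test in limma called 19 of the 30 tested members at a Benjamini-Hochberg adjusted p under 0.05, where 36.4% of all tested probe sets were called. With a span of at least 1 between strain means as well, 11 members were called, against 9.09% of all probe sets. Among the 19, the lowest strain mean was that of SWR for 15, of FVB for 2 and of BALB/c and C57BL/6 for 1 each. The highest was that of 129X1 for 11, of AKR for 4 and of BALB/c and C57BL/6 for 2 each. Over all probe sets the F test called, SWR was lowest in 15% and 129X1 highest in 19.5%. The heat map of all measured members shows the SWR columns as the low block and 129X1 replicates 1 and 3 as the highest columns.

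**Figure D1:**
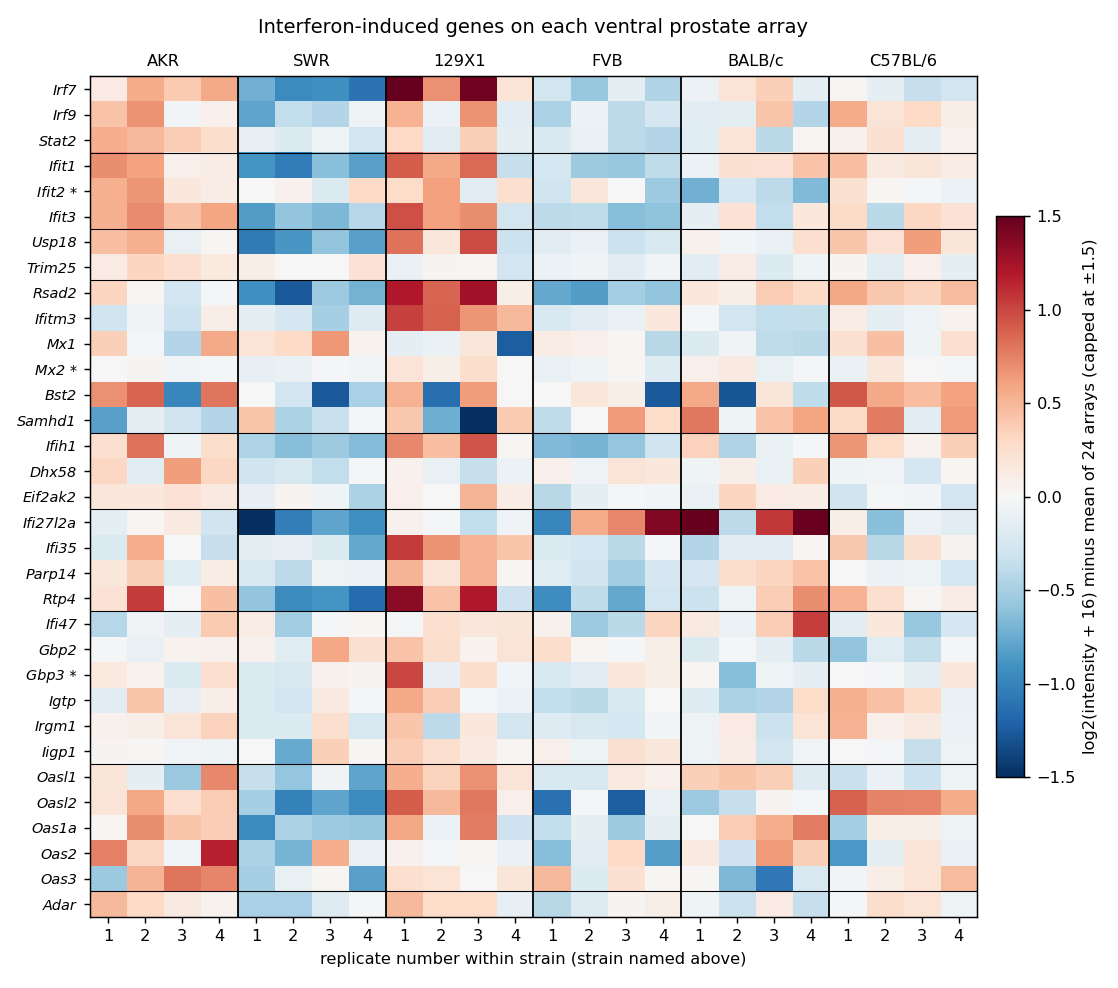
Heat map of the 33 measured interferon-induced genes (vertical) on the 24 arrays (horizontal, by strain), coloured by log2(intensity + 16) minus the gene's mean over all arrays. An asterisk marks the 3 genes that did not pass the brightness filter. SWR arrays are low for most genes, and 129X1 replicates 1 and 3 are the highest.

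The mean of the 33 measured members on each array, after each gene was centred on its own mean, gives the same picture by array. The 4 SWR arrays lay at −0.37, −0.45, −0.25 and −0.35, in the order of replicates 1 to 4, which is the order used for every list of 4 values. The FVB arrays lay at −0.29, −0.19, −0.16 and −0.14. The 129X1 arrays spread widest, at 0.54, 0.17, 0.37 and −0.04, and the AKR arrays lay at 0.16, 0.32, 0.02 and 0.24. BALB/c arrays were near the centre, at 0.02, −0.10, 0.03 and 0.11, and so were C57BL/6 arrays, at 0.15, 0.09, 0.04 and 0.07. No SWR array reached the lowest array of AKR, 129X1, BALB/c or C57BL/6, while SWR replicate 3 (−0.25) lay above FVB replicate 1 (−0.29).

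**Figure D2:**
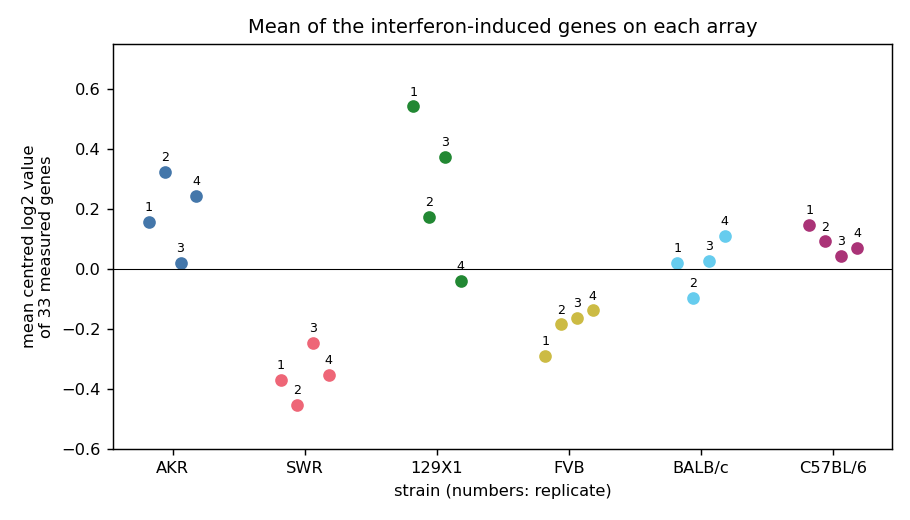
Mean of the 33 measured interferon-induced genes on each array (vertical, log2 scale, each gene centred on its mean over 24 arrays) by strain (horizontal), with the replicate number beside each point. SWR and FVB arrays lie below 0 and 129X1 arrays run from −0.04 to 0.54.

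The 3 transcription factors of the pathway all passed the F test, where 36.4% of all tested probe sets did, and Irf7, the induced factor that amplifies interferon production, showed the widest span of the 3. Its level was 7.19, 7.63, 7.47 and 7.64 in AKR, 6.35, 6.11, 6.15 and 5.96 in SWR, and 8.65, 7.76, 8.52 and 7.28 in 129X1. It was 6.80, 6.50, 6.93 and 6.62 in FVB, 6.99, 7.27, 7.42 and 6.92 in BALB/c, and 7.09, 6.93, 6.72 and 6.78 in C57BL/6. The 4 SWR arrays lay below all 20 others, and 129X1 replicates 1 and 3 lay above every other array. The strain means of Irf7 went from 6.14 ± 0.16 (SD, n = 4) in SWR to 8.05 ± 0.65 in 129X1, 3.76-fold apart (F test, adjusted p = 5.3e-06). SWR was 2.16-fold lower than the mean of the other strains (log2 difference −1.11 ± 0.16 SE, adjusted p = 7.7e-05) and 129X1 was 2.26-fold higher (log2 difference 1.18 ± 0.16 SE, adjusted p = 2.2e-05). Of the 15 strain pairs 8 differed, but no pair of neighbours in the order SWR, FVB, C57BL/6, BALB/c, AKR, 129X1 did.

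Irf9, the DNA-binding subunit of ISGF3, spanned less. Irf9 measured 7.16, 7.41, 6.70 and 6.81 in AKR, 5.94, 6.36, 6.29 and 6.66 in SWR, and 7.25, 6.65, 7.41 and 6.56 in 129X1. The remaining arrays gave 6.26, 6.64, 6.34 and 6.48 in FVB, 6.58, 6.59, 7.15 and 6.30 in BALB/c, and 7.29, 6.93, 7.04 and 6.83 in C57BL/6. SWR overlapped FVB, BALB/c and 129X1, and lay below all 4 arrays of AKR and of C57BL/6. From the lowest to the highest strain the means were 6.31 ± 0.29 (SD, n = 4) in SWR to 7.02 ± 0.20 in C57BL/6, a span of 1.63-fold with an F test adjusted p of 0.018. SWR was 1.42-fold lower than the mean of the other strains (log2 difference −0.50 ± 0.16 SE, adjusted p = 0.044), a call lost in 17 of 37 alternatives, among them leaving out SWR replicate 1, 2 or 3 (adjusted p up to 0.21). Of the pairs, SWR differed from AKR, 129X1 and C57BL/6, and no neighbouring pair differed.

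Stat2, the ISGF3 subunit that carries the activation domain, was highest in AKR. The arrays gave Stat2 levels of 7.35, 7.29, 7.17 and 7.07 in AKR, 6.68, 6.60, 6.72 and 6.52 in SWR, and 7.10, 6.64, 7.15 and 6.66 in 129X1. They were 6.57, 6.69, 6.41 and 6.37 in FVB, 6.62, 7.003, 6.40 and 6.83 in BALB/c, and 6.86, 7.04, 6.66 and 6.85 in C57BL/6. The 4 AKR values overlapped only those of 129X1. Strain means ran from 6.51 ± 0.15 (SD, n = 4) in FVB to 7.22 ± 0.13 in AKR, a 1.64-fold span (F test, adjusted p = 0.0043). AKR was 1.42-fold higher than the mean of the other strains (log2 difference 0.50 ± 0.11 SE, adjusted p = 0.0034) and FVB was 1.27-fold lower (log2 difference −0.35 ± 0.11 SE, adjusted p = 0.048). The FVB call was lost in 23 of 37 alternatives (adjusted p up to 0.58). Another, dimmer Stat2 probe set did not pass the F test (adjusted p = 0.23), with strain means between 5.47 in FVB and 6.04 in 129X1, and the AKR call was lost when the probe sets were averaged (adjusted p = 0.11).

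Among the antiviral effector genes, both tested Ifit genes and 2 of 5 tested virus restriction genes, Rsad2 and Ifitm3, passed the F test, against 36.4% of all tested probe sets. Ifit1 encodes a protein that binds viral RNA lacking normal cap methylation. Its level was 7.53, 7.43, 6.91 and 6.94 in AKR, 5.93, 5.78, 6.21 and 6.02 in SWR, and 7.75, 7.41, 7.69 and 6.48 in 129X1. It was 6.57, 6.30, 6.27 and 6.45 in FVB, 6.75, 7.07, 7.05 and 7.27 in BALB/c, and 7.29, 6.97, 7.02 and 6.95 in C57BL/6. All 4 SWR arrays lay below the other 20, FVB lay next, and 129X1 replicate 4 stood below the other 129X1 arrays. The strain means of Ifit1 went from 5.99 ± 0.18 (SD, n = 4) in SWR to 7.33 ± 0.58 in 129X1, 2.54-fold apart (F test, adjusted p = 7.6e-05). SWR was 2.02-fold lower than the mean of the other strains (log2 difference −1.02 ± 0.16 SE, adjusted p = 0.00015), FVB was 1.44-fold lower (log2 difference −0.52 ± 0.16 SE, adjusted p = 0.047), and 129X1 was 1.51-fold higher (log2 difference 0.59 ± 0.16 SE, adjusted p = 0.015). The SWR call held in all 37 alternatives. The 129X1 call was lost without 129X1 replicate 1, 2 or 3 or with a smooth muscle score in the model (adjusted p up to 0.12), and the FVB call was lost in 24 alternatives (adjusted p up to 0.51). FVB and BALB/c were the 1 pair of neighbours in the order of means that differed.

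Ifit3, which partners Ifit1 in that RNA-binding complex, followed a similar order. Ifit3 measured 6.70, 6.88, 6.61 and 6.76 in AKR, 5.33, 5.57, 5.50 and 5.74 in SWR, and 7.14, 6.79, 6.86 and 5.90 in 129X1. The remaining arrays gave 5.77, 5.79, 5.52 and 5.56 in FVB, 6.02, 6.39, 5.80 and 6.33 in BALB/c, and 6.46, 5.76, 6.48 and 6.39 in C57BL/6. SWR and FVB overlapped each other, all 4 AKR arrays were above both, and 129X1 replicate 4 again stood below the rest of its strain. The means of SWR (5.54) and FVB (5.66) fell within the range of the arrays' 40th percentiles (5.52 to 5.72). The low end of this gene is therefore close to dim signal. From the lowest to the highest strain the means were 5.54 ± 0.17 (SD, n = 4) in SWR to 6.74 ± 0.11 in AKR, a span of 2.30-fold with an F test adjusted p of 0.00012. AKR was 1.61-fold higher than the mean of the other strains (log2 difference 0.68 ± 0.16 SE, adjusted p = 0.0060) and SWR was 1.69-fold lower (log2 difference −0.76 ± 0.16 SE, adjusted p = 0.0025), and both calls held in every alternative. 129X1 was 1.52-fold higher (log2 difference 0.60 ± 0.16 SE, adjusted p = 0.012), a call lost without its replicate 1, 2 or 3 or with the smooth muscle score (adjusted p up to 0.16). FVB was 1.53-fold lower (log2 difference −0.61 ± 0.16 SE, adjusted p = 0.017), a call lost without FVB replicate 3 or 4 or with that score (adjusted p up to 0.28).

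Rsad2 encodes viperin, a radical SAM enzyme that blocks virus replication. The arrays gave Rsad2 levels of 7.33, 7.03, 6.71 and 6.99 in AKR, 6.08, 5.74, 6.45 and 6.30 in SWR, and 8.21, 7.88, 8.26 and 7.09 in 129X1. They were 6.23, 6.16, 6.49 and 6.41 in FVB, 7.16, 7.09, 7.38 and 7.29 in BALB/c, and 7.58, 7.40, 7.33 and 7.48 in C57BL/6. SWR and FVB overlapped each other, and neither reached the lowest array of any other strain. Strain means ran from 6.14 ± 0.31 (SD, n = 4) in SWR to 7.86 ± 0.54 in 129X1, a 3.29-fold span (F test, adjusted p = 1.3e-06). 129X1 was 2.04-fold higher than the mean of the other strains (log2 difference 1.03 ± 0.15 SE, adjusted p = 4.1e-05) and SWR was 2.05-fold lower (log2 difference −1.03 ± 0.15 SE, adjusted p = 6.7e-05), and both calls held in every alternative. FVB was 1.76-fold lower (log2 difference −0.82 ± 0.15 SE, adjusted p = 0.0011), a call lost with the smooth muscle score (adjusted p = 0.11). C57BL/6 was 1.45-fold higher (log2 difference 0.54 ± 0.15 SE, adjusted p = 0.022), a call lost without its replicate 1, 2 or 4 or with the pan-leukocyte or smooth muscle score (adjusted p up to 0.096). Each of its 3 probe sets passed the F test with SWR and FVB called lower and 129X1 higher.

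Ifitm3 encodes a membrane protein that restricts virus entry. Its level was 8.77, 9.01, 8.74 and 9.17 in AKR, 8.93, 8.81, 8.56 and 8.87 in SWR, and 10.09, 9.95, 9.72 and 9.56 in 129X1. It was 8.83, 8.89, 8.97 and 9.22 in FVB, 9.05, 8.77, 8.70 and 8.70 in BALB/c, and 9.17, 8.93, 8.99 and 9.12 in C57BL/6. The 4 arrays of 129X1 lay above all 20 others, and the other 5 strains overlapped. The strain means of Ifitm3 went from 8.79 ± 0.16 (SD, n = 4) in SWR to 9.83 ± 0.24 in 129X1, 2.05-fold apart (F test, adjusted p = 1.2e-05). 129X1 was 1.89-fold higher than the mean of the other strains (log2 difference 0.92 ± 0.10 SE, adjusted p = 9.9e-07), and differed from each of the other 5 strains in the pairwise tests. SWR was 1.25-fold lower (log2 difference −0.32 ± 0.10 SE, adjusted p = 0.046), lost in 22 alternatives (adjusted p up to 0.20). BALB/c was 1.24-fold lower (log2 difference −0.31 ± 0.10 SE, adjusted p = 0.037), lost in 6, among them leaving out BALB/c replicate 2, 3 or 4 (adjusted p up to 0.66). The GTPase gene Mx1 did not pass the F test (adjusted p = 0.14), with strain means between 5.37 in 129X1 and 6.00 in SWR, close to the brightness filter. Bst2, encoding the virion-retaining protein tetherin, had strain means from 5.36 in SWR to 6.51 in C57BL/6 but wide spread within strains and did not pass (adjusted p = 0.22). Samhd1, a dNTP hydrolase that limits viral DNA synthesis, did not pass on its brightest probe set (adjusted p = 0.14), where 129X1 and AKR were lowest (both 6.76). Another of its 4 probe sets passed (adjusted p = 0.0059) with AKR lowest at 6.24 and 129X1 highest at 6.79, so these probe sets disagreed in 129X1. The remaining probe sets did not pass, and AKR was lowest on 1 of them (6.70) and highest on the other (6.76).

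**Figure D3:**
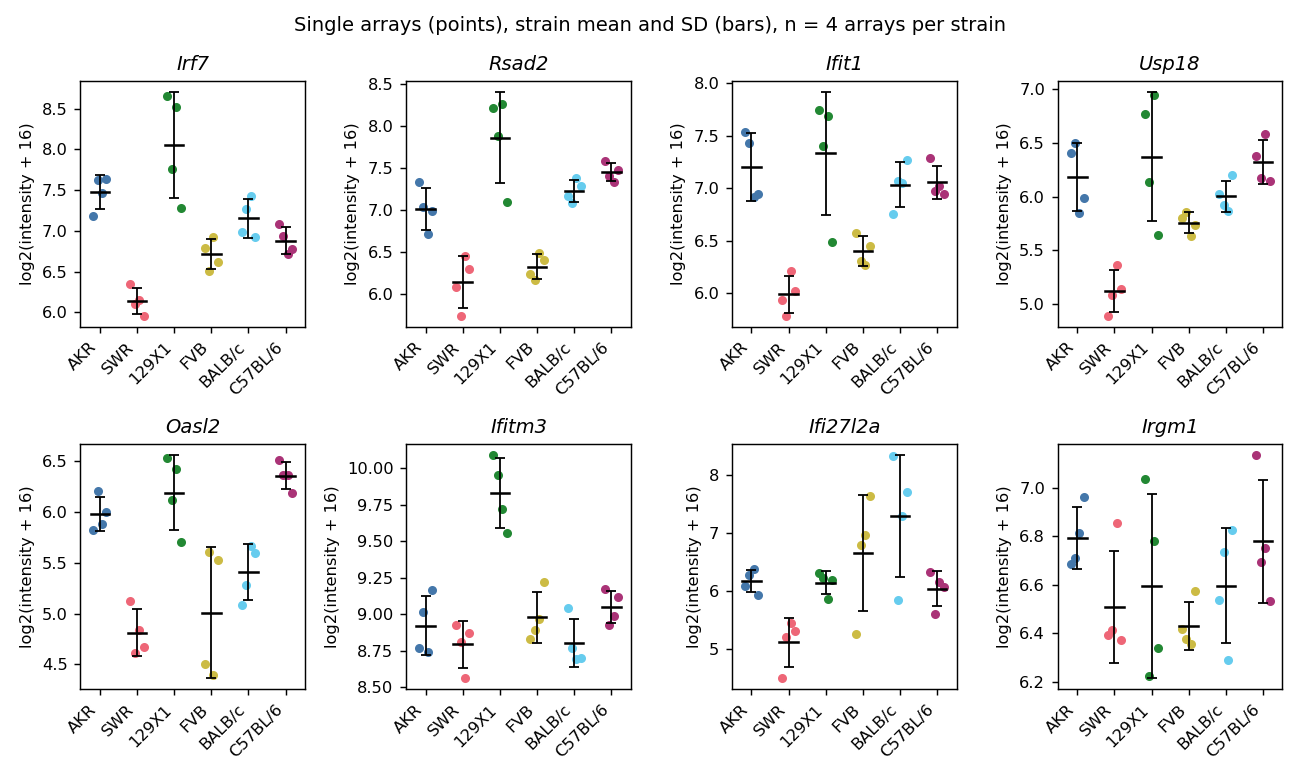
Level of 8 interferon-induced genes (vertical, log2(intensity + 16)) in each strain (horizontal). Points are arrays, and the bar and whiskers are the mean and SD of 4 arrays. The 4 SWR arrays lie below all others for Irf7, Ifit1 and Usp18, the 4 arrays of 129X1 lie above all others for Ifitm3, and the Irgm1 ranges of neighbouring strains overlap, with AKR above FVB.

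Of the 3 tested RNA sensors 1 passed the F test, near the share of all tested probe sets, 36.4%. It was Ifih1, the MDA5 helicase that detects long double-stranded RNA. Ifih1 measured 7.43, 8.01, 7.13 and 7.46 in AKR, 6.73, 6.55, 6.66 and 6.54 in SWR, and 7.92, 7.64, 8.14 and 7.22 in 129X1. The remaining arrays gave 6.53, 6.50, 6.62 and 6.90 in FVB, 7.54, 6.74, 7.10 and 7.18 in BALB/c, and 7.86, 7.47, 7.25 and 7.55 in C57BL/6. SWR lay below every array of the other strains except FVB, and FVB replicate 4 reached into the BALB/c range. From the lowest to the highest strain the means were 6.62 ± 0.09 (SD, n = 4) in SWR to 7.73 ± 0.40 in 129X1, a span of 2.15-fold with an F test adjusted p of 0.00013. SWR was 1.61-fold lower than the mean of the other strains (log2 difference −0.69 ± 0.15 SE, adjusted p = 0.0043), FVB was 1.59-fold lower (log2 difference −0.67 ± 0.15 SE, adjusted p = 0.0067), and 129X1 was 1.56-fold higher (log2 difference 0.64 ± 0.15 SE, adjusted p = 0.0060). The SWR call held in every alternative. That of 129X1 was lost without its replicate 3 or with the smooth muscle score (adjusted p up to 0.14), and that of FVB with the smooth muscle score (adjusted p = 0.13). Dhx58, the helicase LGP2 (strain means 5.79 in SWR to 6.30 in AKR, adjusted p = 0.060), and Eif2ak2, the kinase PKR (6.19 in C57BL/6 to 6.52 in 129X1, adjusted p = 0.055), did not pass the F test.

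The oligoadenylate synthetases make the second messenger that activates RNase L, although Oasl1 lacks the enzyme activity. In this family 4 of 5 tested genes passed the F test, against 36.4% of all tested probe sets, and the call of Oas3, among the 4, was lost in most alternatives. Oasl2 was low in SWR. The arrays gave Oasl2 levels of 5.82, 6.21, 5.89 and 6.01 in AKR, 5.13, 4.62, 4.84 and 4.67 in SWR, and 6.53, 6.12, 6.42 and 5.70 in 129X1. They were 4.51, 5.61, 4.40 and 5.53 in FVB, 5.09, 5.28, 5.67 and 5.60 in BALB/c, and 6.52, 6.37, 6.36 and 6.19 in C57BL/6. SWR overlapped FVB, whose arrays fell into a lower and a higher pair, and the lowest BALB/c array, and C57BL/6 overlapped 129X1 and AKR. All 4 SWR arrays lay below the 40th percentile used in the brightness filter (5.52 to 5.72). The means of FVB (5.01) and BALB/c (5.41) did too, so the low end of this gene is dim signal. Strain means ran from 4.81 ± 0.23 (SD, n = 4) in SWR to 6.36 ± 0.13 in C57BL/6, a 2.92-fold span (F test, adjusted p = 2.3e-05). SWR was 1.97-fold lower than the mean of the other strains (log2 difference −0.98 ± 0.18 SE, adjusted p = 0.00080) and C57BL/6 was 1.84-fold higher (log2 difference 0.88 ± 0.18 SE, adjusted p = 0.0017), both in every alternative. 129X1 was 1.60-fold higher (log2 difference 0.68 ± 0.18 SE, adjusted p = 0.013), lost without its replicate 1 or 3 or with the smooth muscle score (adjusted p up to 0.090). FVB was 1.67-fold lower (log2 difference −0.74 ± 0.18 SE, adjusted p = 0.011), lost without FVB replicate 1 or 3 or with that score (adjusted p up to 0.46).

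Oas1a, a synthetase proper, had its lowest mean in SWR and its highest in BALB/c, with AKR close below. Its level was 7.83, 8.50, 8.22 and 8.17 in AKR, 6.85, 7.32, 7.25 and 7.24 in SWR, and 8.38, 7.72, 8.57 and 7.49 in 129X1. It was 7.43, 7.66, 7.27 and 7.66 in FVB, 7.79, 8.19, 8.35 and 8.57 in BALB/c, and 7.31, 7.89, 7.89 and 7.72 in C57BL/6. SWR was low, with its highest array just above the lowest of FVB and C57BL/6, and 129X1 replicates 1 and 3 lay well above replicates 2 and 4. The strain means of Oas1a went from 7.17 ± 0.21 (SD, n = 4) in SWR to 8.23 ± 0.33 in BALB/c, 2.08-fold apart (F test, adjusted p = 0.0016). SWR was 1.70-fold lower than the mean of the other strains (log2 difference −0.76 ± 0.16 SE, adjusted p = 0.0037) in every alternative, and BALB/c was 1.42-fold higher (log2 difference 0.51 ± 0.16 SE, adjusted p = 0.033), lost in 6 alternatives, among them leaving out BALB/c replicate 2, 3 or 4 (adjusted p up to 0.72). Oasl1, a negative regulator of Irf7 translation, ranged from 6.41 in SWR to 7.29 in 129X1 (adjusted p = 0.018), and both ends were called against the mean of the others. The SWR call was lost in 7 alternatives (adjusted p up to 0.23) and the 129X1 call in 6 (adjusted p up to 0.38), leaving out 129X1 replicate 1, 2 or 3 or SWR replicate 1, 2 or 4 among them. Oas3 passed narrowly (adjusted p = 0.049), from 5.27 in BALB/c to 6.12 in AKR, and lost that call in 29 of 36 alternatives. Oas2 did not pass (adjusted p = 0.11).

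The ISG15 system attaches a ubiquitin-like protein to targets. Of its 2 tested genes 1 passed the F test, against 36.4% of all tested probe sets. It was Usp18, the protease that removes ISG15 and dampens the interferon receptor. Usp18 measured 6.41, 6.49, 5.84 and 5.98 in AKR, 4.89, 5.09, 5.36 and 5.14 in SWR, and 6.77, 6.13, 6.94 and 5.64 in 129X1. The remaining arrays gave 5.80, 5.86, 5.63 and 5.73 in FVB, 6.02, 5.92, 5.86 and 6.20 in BALB/c, and 6.37, 6.17, 6.58 and 6.14 in C57BL/6. The 4 SWR arrays lay below the other 20, and 129X1 replicates 1 and 3 were the highest of all while its replicate 4, at 5.64, was close to the lowest array outside SWR. From the lowest to the highest strain the means were 5.12 ± 0.19 (SD, n = 4) in SWR to 6.37 ± 0.60 in 129X1, a span of 2.37-fold with an F test adjusted p of 0.00034. SWR was 2.004-fold lower than the mean of the other strains (log2 difference −1.003 ± 0.16 SE, adjusted p = 0.00018), a call held in every alternative. The 4 SWR arrays lay below the 40th percentile used in the brightness filter (5.52 to 5.72), so the SWR level is dim signal. 129X1 was 1.41-fold higher (log2 difference 0.49 ± 0.16 SE, adjusted p = 0.045), a call lost in 20 of 37 (adjusted p up to 0.28). Trim25, a ubiquitin ligase that also ligates ISG15, ranged from 7.90 in FVB to 8.19 in AKR and did not pass the F test on its brightest probe set (adjusted p = 0.085), while AKR was 1.19-fold higher than the mean of the other strains (log2 difference 0.25 ± 0.08 SE, adjusted p = 0.042), a call lost in 18 alternatives (adjusted p up to 0.13). Its other 2 probe sets did pass (adjusted p = 0.025 and 0.00096), also with AKR called higher.

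Among the remaining effectors, Ifi27l2a, an interferon-induced mitochondrial and nuclear envelope protein, had the widest span of strain means of any tested member. The arrays gave Ifi27l2a levels of 6.10, 6.28, 6.38 and 5.94 in AKR, 4.50, 5.21, 5.46 and 5.32 in SWR, and 6.31, 6.22, 5.87 and 6.19 in 129X1. They were 5.26, 6.79, 6.96 and 7.64 in FVB, 8.33, 5.86, 7.31 and 7.72 in BALB/c, and 6.34, 5.62, 6.15 and 6.07 in C57BL/6. The SWR arrays were the lowest apart from FVB replicate 1, and FVB and BALB/c each spread over more than 2 log2 units. Every SWR array lay below the 40th percentile used in the brightness filter (5.52 to 5.72), so the SWR level is dim signal. Strain means ran from 5.12 ± 0.43 (SD, n = 4) in SWR to 7.30 ± 1.05 in BALB/c, a 4.54-fold span (F test, adjusted p = 0.0049). SWR was 2.54-fold lower than the mean of the other strains (log2 difference −1.35 ± 0.32 SE, adjusted p = 0.0073), a call lost without SWR replicate 1 (adjusted p = 0.055), and BALB/c was 2.41-fold higher (log2 difference 1.27 ± 0.32 SE, adjusted p = 0.0062), lost without BALB/c replicate 1 or with the smooth muscle score (adjusted p up to 0.22). FVB and BALB/c also held the arrays with high adipocyte markers, whose summed intensity was 318 to 3884 in FVB and 489 to 3720 in BALB/c against 207 to 892 in the other strains. FVB replicate 1 and BALB/c replicate 2, the lowest of their strains for Ifi27l2a, had adipocyte scores of −0.40 and −0.12, and their other 6 arrays had scores of 0.69 to 1.87. The part of adipocytes in this result was not tested.

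Rtp4, a chaperone of G protein-coupled receptors that is strongly induced by interferon, repeated the order of Irf7 at its ends. Its level was 6.97, 7.81, 6.74 and 7.20 in AKR, 6.16, 5.80, 5.86 and 5.60 in SWR, and 8.10, 7.18, 7.95 and 6.44 in 129X1. It was 5.82, 6.38, 5.99 and 6.48 in FVB, 6.44, 6.69, 7.12 and 7.46 in BALB/c, and 7.27, 6.99, 6.77 and 6.86 in C57BL/6. SWR overlapped only FVB, and 129X1 spanned from the highest array of all to a replicate 4 below every AKR and C57BL/6 array. The strain means of Rtp4 went from 5.86 ± 0.23 (SD, n = 4) in SWR to 7.42 ± 0.77 in 129X1, 2.96-fold apart (F test, adjusted p = 0.00083). SWR was 2.11-fold lower than the mean of the other strains (log2 difference −1.08 ± 0.22 SE, adjusted p = 0.0027) in every alternative, and 129X1 was 1.74-fold higher (log2 difference 0.80 ± 0.22 SE, adjusted p = 0.020), lost without its replicate 1 or 3 or with the smooth muscle score (adjusted p up to 0.16).

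Ifi35, a regulator of the interferon response that pairs with Nmi, was called in 129X1 and in no other strain. Ifi35 measured 6.48, 7.25, 6.69 and 6.35 in AKR, 6.55, 6.58, 6.49 and 5.94 in SWR, and 7.75, 7.37, 7.23 and 7.12 in 129X1. The remaining arrays gave 6.48, 6.44, 6.29 and 6.67 in FVB, 6.26, 6.54, 6.53 and 6.73 in BALB/c, and 7.10, 6.28, 6.93 and 6.74 in C57BL/6. The lowest 129X1 array lay just above all others but AKR replicate 2. From the lowest to the highest strain the means were 6.39 ± 0.31 (SD, n = 4) in SWR to 7.37 ± 0.28 in 129X1, a span of 1.97-fold with an F test adjusted p of 0.0041. 129X1 was 1.74-fold higher than the mean of the other strains (log2 difference 0.80 ± 0.15 SE, adjusted p = 0.00086), a call held in every alternative, and differed from each of the other 5 strains in pairwise tests. Parp14, an ADP-ribosyltransferase, ranged from 6.47 in FVB to 7.10 in 129X1 (adjusted p = 0.0096). Both of its calls were lost in some alternatives, that of 129X1 in 6 (adjusted p up to 0.24), and that of FVB in 23 (adjusted p up to 0.44). Adar, which edits adenosine to inosine in double-stranded RNA, ranged from 6.32 in SWR to 6.85 in AKR (adjusted p = 0.028). The Adar call was lost without AKR replicate 1 or SWR replicate 1 or 2 (adjusted p up to 0.065).

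The GTPases of cell-autonomous immunity, which act on vacuoles of intracellular pathogens and respond mainly to interferon gamma, had 1 of 5 tested members pass the F test, against 36.4% of all tested probe sets. The number called in SWR, 129X1 or FVB was 0, where 3.45% to 6.38% of all probe sets were called in a direction, so a count of 0 among 5 is near the background. The 1 that passed was Gbp2, a guanylate-binding protein, from 5.73 in C57BL/6 to 6.25 in 129X1 (adjusted p = 0.025), and SWR, at 6.19, lay next to 129X1. That F test was lost without C57BL/6 replicate 1 or 3 or with a skeletal or smooth muscle score (adjusted p up to 0.15), and the lower call of C57BL/6 was lost in 18 of 36 alternatives (adjusted p up to 0.25). On another Gbp2 probe set, too dim to be tested, C57BL/6 had the highest mean (5.45), so the probe sets of this gene disagreed. Igtp ranged from 6.14 in FVB to 6.68 in C57BL/6 (adjusted p = 0.080), and Irgm1 from 6.43 in FVB to 6.79 in AKR (adjusted p = 0.32). Iigp1 ranged from 6.63 in C57BL/6 to 6.94 in 129X1 (adjusted p = 0.44) and Ifi47 from 5.68 in C57BL/6 to 6.25 in BALB/c (adjusted p = 0.24). Whether this group differs from the other members was not tested.

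Against the mean of the other 5 strains, SWR was lower for 13 tested members and higher for 0, where 5.04% of all probe sets were lower and 5.52% higher. At an unadjusted p under 0.05, limma gave 18 lower and 0 higher. The share of all probe sets at that unadjusted cut is not given, here or for the other strains. It cannot be smaller than the share at the adjusted cut. The unadjusted counts therefore have no background to be set against. The 13 were Irf7, Irf9, Ifit1, Ifit3, Rsad2, Ifih1, Ifi27l2a, Ifitm3, Oasl1, Oasl2, Oas1a, Usp18 and Rtp4. Over the 33 measured members the median difference of SWR was −0.32, with 29 below 0, while over all 22626 probe sets it was −0.03. The 4 SWR arrays were lower than all 20 others for Irf7, Ifit1 and Usp18, 3 of 30 members, against 0.463% of probe sets. Leaving out single arrays gave 9 (without SWR replicate 1) to 14, and leaving out the 3 arrays of high muscle signal gave 12. Leukocyte markers beside this result overlapped in their sums. The summed intensity of 8 pan-leukocyte genes was 462 to 580 in SWR and 463 to 653 in the other strains. For 11 T and NK cell genes it was 130 to 202 in SWR and 155 to 288 elsewhere. No tested gene of either list was called in SWR. The log2 differences of SWR were 0.18 for Lcp1, the brightest pan-leukocyte gene, and 0.12 for Cd52. They were −0.17 for Ptprc, −0.28 for Laptm5, −0.04 for Coro1a, −0.40 for Cd53 and −0.18 for Rac2. The T and NK cell genes bright enough to test gave −0.36 for Cd3e, −0.34 for Cd5 and 0.01 for Il2rb. Among B and plasma cell genes, Ms4a1, which encodes CD20, was lower in SWR (log2 difference −0.49, adjusted p = 0.027). With the pan-leukocyte score in the model, 12 members were lower in SWR. Of 8 smooth muscle genes 4, Myh11, Tagln, Actg2 and Smtn, were higher in SWR and 1, Des, lower, and with the smooth muscle score in the model 10 members were lower, the calls of Irf9, Ifitm3 and Oasl1 being lost. The part of these cells in the SWR calls was not tested.

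**Figure D4:**
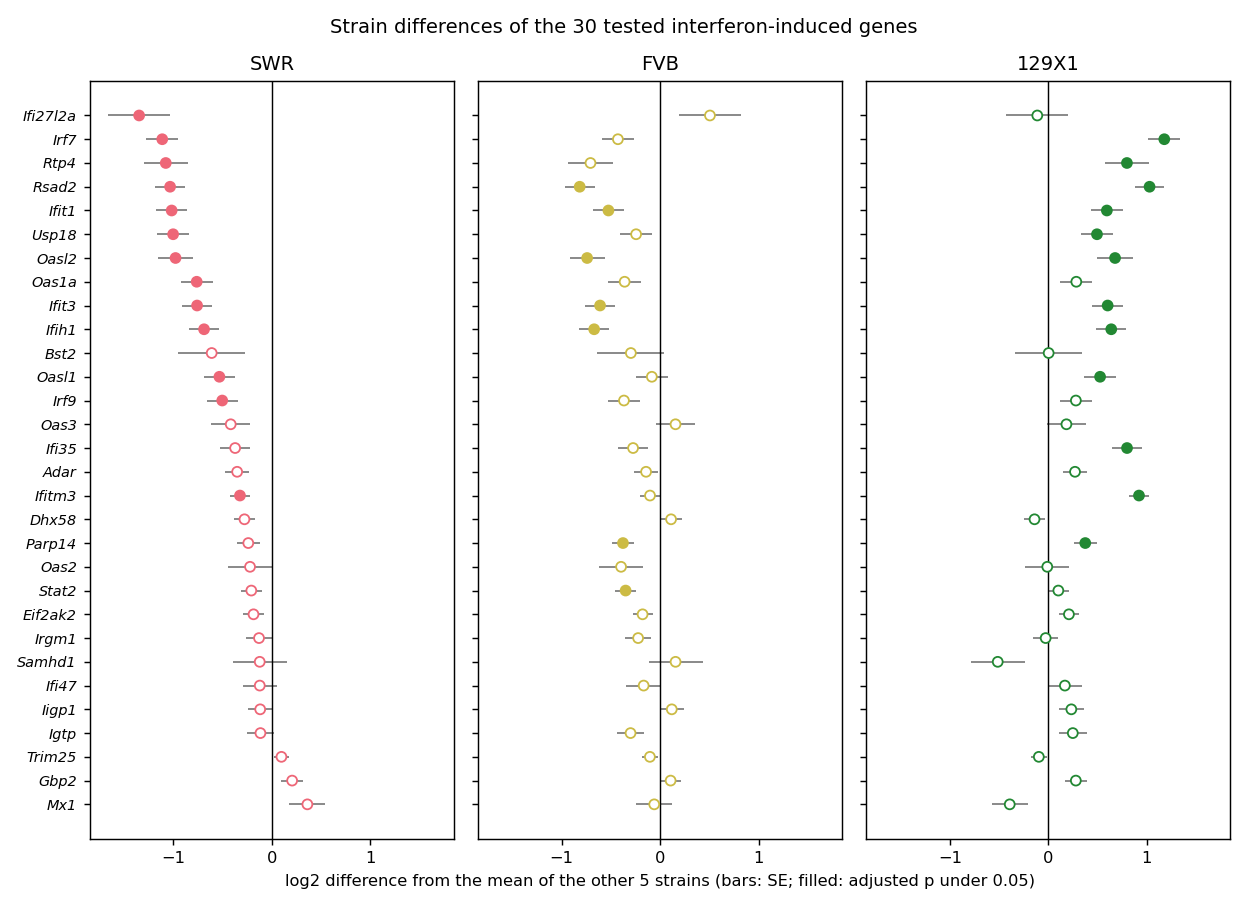
Difference of SWR, FVB and 129X1 from the mean of the other 5 strains (horizontal, log2 scale) for the 30 tested interferon-induced genes (vertical). Bars are standard errors and filled points have an adjusted p under 0.05: 13 lower in SWR, 7 lower in FVB and 12 higher in 129X1.

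129X1 was higher for 12 members and lower for 0, where 6.38% of all probe sets were higher and 5.27% lower. Unadjusted, limma gave 14 higher and 1 lower, with no share of all probe sets given at that cut. The 12 were Irf7, Ifit1, Ifit3, Rsad2, Ifih1, Ifi35, Ifitm3, Oasl1, Oasl2, Usp18, Parp14 and Rtp4. The median over the 33 measured members was 0.28, and 26 were above 0. The 4 arrays of 129X1 lay above all 20 others only for Ifitm3, 1 of 30, against 0.862% of probe sets. The strain's arrays differed in these genes: replicate 1 was the highest of the 4 for 18 of 33 members and replicate 3 for 12, and replicate 4 was highest for 0 and lowest for 21, where replicate 4 was lowest for 27.8% of all tested probe sets. The median SD within 129X1 was 0.31 over the members and 0.19 over all tested probe sets. The count of members called fell to 5 without 129X1 replicate 1 and to 4 without replicate 3. It was 11 without the 3 arrays of high muscle signal and 12 without replicate 4 alone, the array with the highest skeletal muscle score, whose other 129X1 arrays scored −0.22 to −0.05. With the smooth muscle score in the model it was 5, and 4 of 8 smooth muscle genes were higher in 129X1. Among leukocyte genes, Coro1a, a coronin of blood cells, was higher in 129X1 by 0.75 (adjusted p = 0.020) and Ms4a1 by 0.57 (adjusted p = 0.0088). The macrophage and monocyte gene Cd14 was higher by 0.53 (adjusted p = 0.00067), while Lcp1, plastin, was lower (log2 difference −0.26, adjusted p = 0.048). No other tested gene of the leukocyte lists was called in 129X1. The part of these cells in the result was not tested.

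FVB was lower for 7 members, Stat2, Ifit1, Ifit3, Rsad2, Ifih1, Oasl2 and Parp14, and higher for 0, against 3.65% and 3.45% of probe sets. Without adjustment 12 were lower and 0 higher, a cut at which no share of all probe sets is given. The median over measured members was −0.22, with 27 below 0. This count was the least stable: it was 4 on the values as deposited, 4 without the brightness filter, 4 with the replicate number as a block and 0 with the smooth muscle score in the model (5 at an unadjusted p under 0.05), and it ran from 2 (without FVB replicate 3) to 9 when single arrays were left out. Without FVB replicate 1 or 4 it was 3, and without the 3 arrays of high muscle signal 9. It was 4 without AKR replicate 1 or 2, SWR replicate 1 or 3, 129X1 replicate 1 or 3, BALB/c replicate 2 or 4, or C57BL/6 replicate 1 or 2. Of 8 smooth muscle genes 7 were higher in FVB, 4 in SWR and 4 in 129X1, and 7 were lower in BALB/c. Their summed intensity was 8989 to 10896 in FVB, 7619 to 12639 in SWR, 7776 to 10529 in 129X1 and 4606 to 4842 in BALB/c. The part of smooth muscle in these calls was not tested.

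The other 3 strains gave fewer calls. AKR was higher for 3 members, Stat2, Ifit3 and Trim25, and lower for 0, against 4.67% and 5.12%. At an unadjusted p under 0.05 limma gave 14 and 0. The shares above belong to the adjusted cut, and no share of all probe sets is given at the unadjusted cut. The adjusted count became 5 higher without 129X1 replicate 3 or 4. The median over the members in AKR was 0.25, with 25 of 33 above 0. BALB/c was higher for Ifi27l2a and Oas1a and lower for Ifitm3 and Oas3, 2 each, against 8.3% and 10.6%. With the smooth muscle score in the model 0 of these calls held (2 higher and 2 lower at an unadjusted p under 0.05 in limma), and with array weights only that of Ifi27l2a did. Of 8 smooth muscle genes 7 were lower in BALB/c, and their part in these calls was not tested. The Ifi27l2a call was lost without BALB/c replicate 1, those of Ifitm3 and Oas1a without replicate 2, 3 or 4, and that of Oas3 without replicate 2 or 3. C57BL/6 was higher for Rsad2 and Oasl2, 2 members, against 5.65%, and lower for 1, Gbp2, against 5.45%, and that of Oasl2 was the 1 call without its replicate 1 or 2 or with the pan-leukocyte or smooth muscle score. The median differences were −0.04 in BALB/c and 0.06 in C57BL/6. All comparisons of this kind share their arrays, so each strain's count is not independent of the others.

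Pooled over the strains, part of the members also varied together within strains. After strain means were removed, the median Pearson correlation of a tested member with the mean of the other members over the 24 arrays was 0.43, from −0.23 for Dhx58 to 0.83 for Rtp4, and 11 of 30 exceeded 0.5. Over the other 15745 tested probe sets the median was 0.0018 and 1.30% exceeded 0.5. After strain means were removed, 129X1 replicates 1 (0.28) and 4 (−0.32) lay farthest from the centre in the mean of the members. The correlations of the members were not recomputed without them. The median SD of the members was 0.31 in 129X1 and 0.18 in FVB, against 0.19 over all tested probe sets in each. Whether the members varied together in every strain was not tested. These points share hybridisation and tissue composition, so the correlations are descriptions.

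Genes upstream of the members were read from lists, and their counts in the F test stand against 36.4% of all tested probe sets. Of the interferon genes themselves, 10 of 12 listed were measured, 5 were bright enough to test, and 1, Ifnab, passed the F test (adjusted p = 0.036), highest in BALB/c at 6.04. Ifnb1, the interferon beta gene, had strain means between 5.43 and 5.59 (adjusted p = 0.89), near the brightness filter. In the receptor and signalling list 2 of 12 tested genes passed, a share below that of all probe sets: Il10rb, a receptor chain of interferon lambda and interleukin 10 (7.04 in FVB to 7.72 in C57BL/6, adjusted p = 0.00049), and Jak1 (8.01 in SWR to 8.48 in 129X1, adjusted p = 0.020). Jak1 was higher in 129X1 than in the mean of the others by 0.35 (adjusted p = 0.0063). The receptor genes Ifnar1 (6.36 to 6.53, adjusted p = 0.80) and Ifnar2 (6.68 to 7.08, adjusted p = 0.063) and the kinase gene Tyk2 (7.06 to 7.21, adjusted p = 0.93) did not pass.

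Of the nucleic acid sensors and adaptors, 2 of 11 tested passed, where 36.4% of all tested probe sets did. Mavs, the mitochondrial adaptor of RNA sensing, ran from 6.29 in SWR to 6.92 in FVB (adjusted p = 0.016), and Tmem173, the DNA-sensing adaptor STING, was lowest in C57BL/6 at 6.76 (log2 difference from the others −0.71, adjusted p = 0.00032). Among 5 further tested transcription factors, Irf1, Irf2, Irf4, Irf8 and Batf2, the gene Irf2, which mostly represses interferon responses, passed (adjusted p = 7.3e-05). It was lower in SWR (6.91, log2 difference −0.71, adjusted p = 0.0065) and in FVB (6.76, log2 difference −0.89, adjusted p = 0.0011), and higher in C57BL/6 (8.15). Batf2 passed too (adjusted p = 0.015) and was higher in AKR. Irf1, Irf4 and Irf8 did not pass.

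A further 40 interferon-induced genes were listed, of which 32 were measured and 27 tested, and 21 of the 27 passed the F test, against 36.4% of all tested probe sets. In SWR 8 were lower and 1 higher, against 5.04% and 5.52% of all probe sets. In 129X1 10 were higher and 1 lower (6.38% and 5.27%), and in AKR 8 were higher and 1 lower (4.67% and 5.12%). In FVB 4 were lower and 0 higher (3.65% and 3.45%), in BALB/c 3 higher and 1 lower (8.3% and 10.6%), and in C57BL/6 2 higher and 0 lower (5.65% and 5.45%). Those lower in SWR included Isg20, an exonuclease (7.01, log2 difference −0.67, adjusted p = 0.00040), Lgals3bp, a secreted glycoprotein (7.16, log2 difference −0.75, adjusted p = 0.00047), and Lgals9, galectin-9 (6.14, log2 difference −0.66, adjusted p = 0.0014). Lgals9 was highest in 129X1 (7.32), as were the antigen-peptide transporter gene Tap1 (6.87) and the chemokine gene Ccl5 (6.59), each called higher there. Trim34a went the other way, higher in SWR (5.93) and C57BL/6 (6.50) and lower in 129X1 (4.59). This list, like the members, was chosen with earlier results of these data known.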

How the data were processed

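Total RNA of 24 samples was hybridised to Affymetrix MOE430A arrays. The deposited table holds 1 linear intensity per probe set and array, made by the authors with MAS5 per the submitters' processing notes, which give no version or settings, and each column had a mean of 143. Because the 2% trimmed means differed (91.4 to 105), each array was rescaled to 98.7, 16 was added and log2 taken. Of 22690 probe sets, 64 were controls and 6851 were dim, above their array's 40th percentile on fewer than 4 arrays, and 15775 remained. Symbols came from the platform annotation updated through RefSeq (GRCm38.p6). Strains were compared by limma (3.58.1, R 4.3.3) in a model holding a term for every strain: an F test, contrasts of a strain with the mean of its 5 counterparts, and 15 pairs, on 18 residual and 4.85 prior degrees of freedom, and Benjamini-Hochberg adjustment over all 15775. The code was tested on simulated data. Marker scores are means of centred log2 values. An array gives no depth in counts, so precision rests on how many arrays there are. Probe sequences were not compared between strains, and signals of close relatives, such as the Oas1 genes, cannot be told apart.

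Every listed member is accounted for. Values on every array are given for Irf7, Irf9 and Stat2, for members passing the F test with strain means at least 1 apart, and for members called in a strain with a difference of at least 0.75. The members and lists were chosen with earlier results of these data known. The 37 alternatives were other pseudocounts, quantile normalisation, values as deposited, other filters, the replicate number as a block, marker scores as covariates, probe set means, array weights, each array left out and, chosen after seeing the data, the 3 arrays of high skeletal muscle signal left out.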

Additional observations from a re-analysis of the deposited data

Results flagged for a closer look

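In 180 groups of 4 arrays (30 tested members in 6 strains), 7 held an array whose gap to its nearest neighbour, as a share of the group's range, passed Dixon's critical value for 4 samples, where chance gives about 5% of groups. In Bst2, AKR replicate 3 was low at 4.89 with the nearest array at 6.56 (share 0.899), and FVB replicate 4 was low at 4.61 with the nearest at 5.88 (share 0.883). FVB replicate 4 was also low in Mx1 (5.28, nearest 5.73, share 0.849). Ifit3 was low in C57BL/6 replicate 2 (5.76, nearest 6.39, share 0.872) and Oasl1 in BALB/c replicate 4 (6.66, nearest 7.21, share 0.902). Ifi35 was low in SWR replicate 4 (5.94, nearest 6.49, share 0.859), an array with high skeletal muscle markers. Irgm1 was high in SWR replicate 3 (6.85, nearest 6.41, share 0.912).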

How the results depend on the processing

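Over 37 alternatives, 24 of which leave out 1 array, 0 results reversed. Of 42 calls of a member in a strain, 15 held in every alternative, and 15 of the 19 members passing the F test passed in every alternative. Leaving out 1 array gave 17 to 20 members in the F test, 2 to 5 in AKR, 9 to 14 in SWR, 4 to 13 in 129X1, 2 to 9 in FVB, 1 to 4 in BALB/c and 1 to 4 in C57BL/6, against 19, 3, 13, 12, 7, 4 and 3 with all arrays. The count in FVB was 4 on the values as deposited, 4 without the brightness filter and 4 with the replicate block. Adding the smooth muscle score to the model gave 5 in 129X1, 0 in FVB, 0 in BALB/c and 1 in C57BL/6. With the pan-leukocyte score it was 2 in BALB/c and 1 in C57BL/6, and with array weights 1 in BALB/c. The cause of these changes was not tested. Where 1 array was left out, the smaller number of arrays and the array itself cannot be told apart. Where the smooth muscle score left 0, limma was the only tool run, and 5 members in FVB and 4 in BALB/c had an unadjusted p under 0.05.

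The replicate numbers did not pair the arrays: residuals of arrays with the same number correlated at 0.0053 on average, from −0.055 to 0.074 by pair. With the replicate number as a block, 19 members passed the F test, and 2 were called in AKR, 11 in SWR, 9 in 129X1, 4 in FVB, 3 in BALB/c and 2 in C57BL/6.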

Other observations

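Outside the listed genes, the 10 genes whose brightest probe set followed the mean of the tested members most closely over the 24 arrays, after strain means were removed, were Angel2, Clca1, Slc25a15, Shisa5, Helz2, Dstn, Pbk, Snx9, Kif22 and Pdcd6. Pearson's r was 0.65 to 0.77 and Spearman's rho 0.39 to 0.72, and r was 0.35 to 0.69 without 129X1 replicates 1 and 4, the arrays farthest from the centre. These genes were picked by r among 9399, so the values are a description. Helz2, a helicase known to be induced by interferon, had r of 0.68 and 0.52 without those arrays, and its strain mean was highest in 129X1 (6.16) and between 5.69 and 5.96 elsewhere, without passing the F test (adjusted p = 0.29). Strain means of Clca1, a secreted protein of mucous epithelia, were 6.53 in SWR and 4.28 to 5.31 elsewhere, so its order among strains was unlike that of the members. Outside SWR these means lay below the 40th percentile used in the brightness filter (5.52 to 5.72), so the signal there was dim. Its r is pooled over the strains and was not computed within single strains.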
